A study of Mus musculus with 8 samples.

Results

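Ovarian steroid hormones are made from cholesterol by a short chain of enzymes, and 10 genes of that chain were followed in mouse oviducts. They were Star, Cyp11a1, Fdx1, Hsd3b1, Hsd3b2, Hsd3b6, Cyp17a1, Cyp19a1, Hsd17b1 and Hsd17b7, read by 18 of the 41174 probes on the array and counted as 10 of 27670 named genes. The genes were chosen by name after their difference between the groups in these arrays was known, so their differences, and how many pass a threshold, are given as a description that supports nothing. Steroid synthesis begins when the Star protein moves cholesterol to the inner mitochondrial membrane, where Cyp11a1 cuts its side chain to give pregnenolone with electrons passed on by Fdx1. The 3β-hydroxysteroid dehydrogenases (Hsd3b) turn pregnenolone into progesterone, Cyp17a1 makes androgens, Cyp19a1 (aromatase) makes estrogens, and Hsd17b1 and Hsd17b7 convert estrone to estradiol. In the ovary, which lies next to the oviduct, these steps are divided among granulosa, theca and luteal cells.

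The RNA came from whole oviducts of female CD-1 mice on pregnancy day 2 (GD2), 48 hr after hCG. Pups were injected under the skin on postnatal days 1 to 5 with genistein (Gen), a soy phytoestrogen, at 50 mg/kg/day (4 mice), or with corn oil alone (control, 4 mice). Females of both groups were superovulated and mated at 6 to 8 weeks of age, and embryos were taken out of the oviducts before RNA isolation. Each mouse had 1 Agilent array read in a single colour, and all values are scaled signals, that is, the background-subtracted signal of a probe brought to the same 75th percentile on every array. All 4 controls lay on 1 slide and all 4 Gen-treated mice on another, so that slide and treatment cannot be told apart. In whole oviducts, fewer cells of a type and less RNA per cell cannot be told apart either. Between 25391 and 28949 probes were well above background on the control arrays and between 29539 and 31485 on the Gen arrays. Markers of the labelled tissue were present on every array. Ovgp1, the oviduct-specific glycoprotein of secretory cells, read 463135 to 601738 in controls and 411755 to 654968 in Gen-treated mice, with its probe saturated on 1 array. Foxj1, the regulator of ciliated cells, read 48191 to 67762 and 39018 to 65937.

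The probes that carried the signal are 60 bases long. Some of them are shown in lower case, 5′ to 3′, with positions on the mm7 build as the array design gives them. Which of the shown or other probes lie in coding sequence is not stated. Both Cyp11a1 probes were placed by the design on the minus strand of unplaced chromosome 9 sequence, at chr9_random:3880883-3880942 and chr9_random:3881114-3881173.
Cyp11a1 A_51_P309733: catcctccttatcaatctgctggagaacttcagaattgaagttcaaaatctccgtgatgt
Cyp11a1 A_51_P309727: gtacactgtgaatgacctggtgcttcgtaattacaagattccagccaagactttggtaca
These probes do not overlap, so Cyp11a1 was read at separate places of its transcript. The probes for Hsd3b2 (chr3:98507615-98507674, minus strand) and Hsd3b6 (chr3:98601948-98602007, minus strand) lie in the same stretch of related genes, and the capitals mark the bases that match when they are laid on each other without a gap.
Hsd3b2 A_52_P339759: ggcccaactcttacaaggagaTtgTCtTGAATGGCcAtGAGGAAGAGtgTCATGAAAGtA
Hsd3b6 A_52_P253567: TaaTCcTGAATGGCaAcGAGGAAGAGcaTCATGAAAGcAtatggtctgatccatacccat
Of 39 aligned bases 31 matched (79.5%). Whether either probe also binds the transcript of the other gene, or that of Hsd3b1, was not tested. The Fdx1 probes at chr9:51926999-51927058 and chr9:51926979-51927038 (minus strand) share the 40 bases in capitals and are therefore close to a repeat measurement of each other.
Fdx1 A_52_P582105: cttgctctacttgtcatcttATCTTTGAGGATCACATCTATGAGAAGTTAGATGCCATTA
Fdx1 A_51_P291135: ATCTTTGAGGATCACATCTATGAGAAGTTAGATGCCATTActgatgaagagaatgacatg
The Cyp17a1 probe is shown because this gene did not move with the others. Its 60 bases are spread over 614 bases of the genome (chr19:46564738-46565351, minus strand), as for a probe that crosses a splice junction.
Cyp17a1 A_51_P116813: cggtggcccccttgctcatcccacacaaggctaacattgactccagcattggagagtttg

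Among the 10 genes, those for the entry of cholesterol, side chain cleavage, progesterone synthesis and the 17β-hydroxysteroid step had higher mean signals in Gen-treated mice, and Cyp17a1 did not. With 1 probe per gene, the one with the highest mean signal, 7 of the 10 genes passed an adjusted p of 0.05 upward in limma and 0 passed downward. Over all 41173 probes tested 2.17% passed upward and 14% downward, and these shares were 2.83% and 2.19% among 28966 detected probes, meaning those well above background on each of the 4 arrays of at least 1 group. Because the genes were selected on this contrast, nothing is read from their count. Whether the Hsd3b probes read separate transcripts was also not tested. The median log2 difference was 2.44 over the 10 genes, −0.06 over all probes tested and 0.02 over the detected ones. All 4 Gen arrays lay above all 4 controls for 7 of the 10 genes, and for 6.02% of detected probes. The calls depended on the settings. When the test was run on detected probes alone, 0.604% of them passed upward, and 0 of the 9 genes in that test did (Cyp19a1 was not detected), with 8 at an unadjusted p under 0.05. Leaving out single arrays gave between 0 and 8 called genes. Control 3 stood apart from the other controls for many of the genes, and without it 8 of the 10 passed upward.

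**Figure D1:**
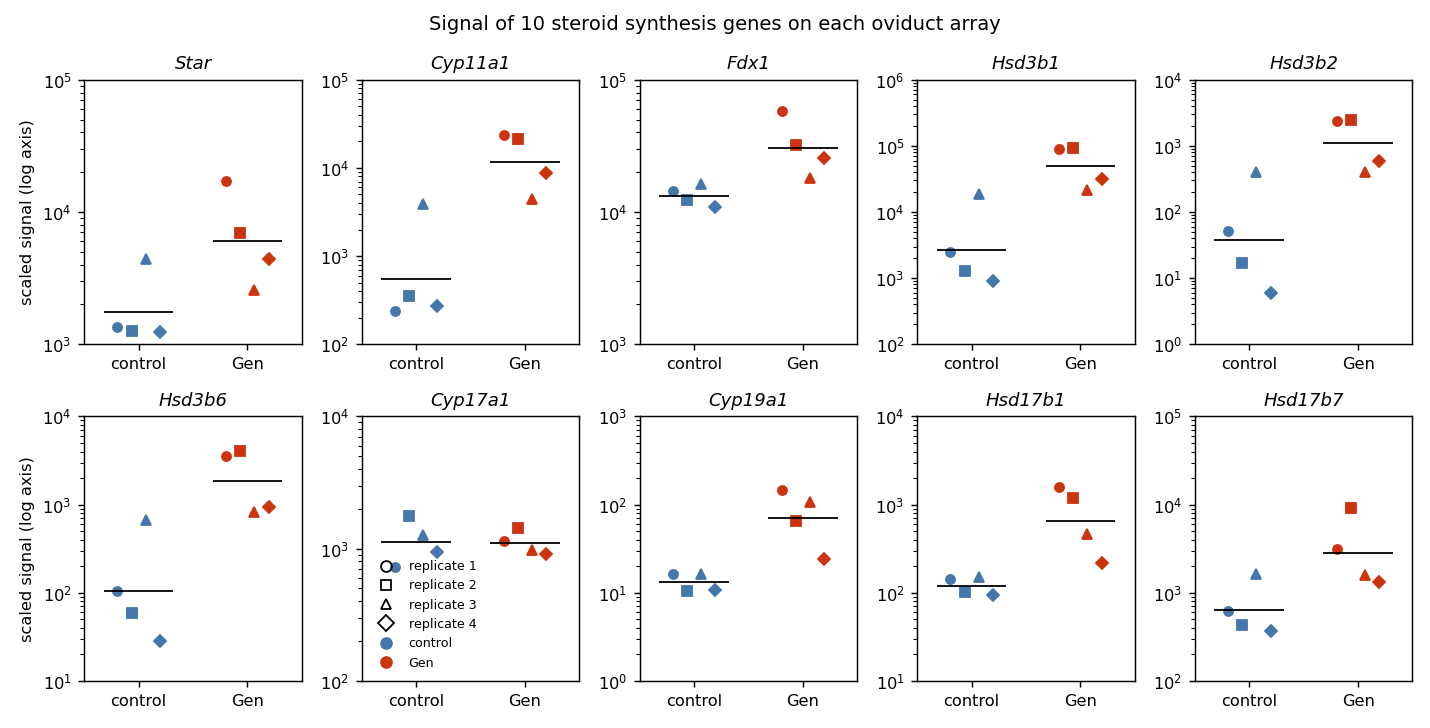
Scaled signal (log axis) of the 10 genes on each array, with 1 probe per gene. Points are single mice, and bars are geometric means of 4 arrays. Marker shapes are replicate numbers within a group, which are not known to pair mice across groups. Control 3 lies apart from the other controls for Cyp11a1, Star, Hsd3b1, Hsd3b2, Hsd3b6 and Hsd17b7, and Cyp17a1 is at about the same level in both groups.

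Star, the cholesterol carrier of the first step, was well above background on every array with both probes. Probe A_51_P274436 (chr8:24570752-24570811) read 1345, 1261, 4391 and 1228 in controls 1 to 4, and 17160, 6877, 2584 and 4371 in Gen-treated mice 1 to 4. The groups overlapped, because control 3 was higher than Gen 3 and Gen 4, while the other controls lay close together. On the log2 scale the groups differed by 1.80 ± 0.64 (SE, n = 4 per group), or 3.47-fold. Probe A_52_P165654 (chr8:24571477-24571536) gave the same picture, with 644, 639, 2062 and 652 in controls against 8430, 3908, 1534 and 2690, and a log2 difference of 1.98 ± 0.58 (SE, n = 4). Without control 3 the difference of the first probe was 2.24, and all 4 Gen arrays were then above the remaining controls.

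Cyp11a1, the side chain cleavage enzyme, had about the same array pattern with both of its probes. Probe A_51_P309733 read 238, 354, 3903 and 271 in controls, and 23785, 21029, 4444 and 8710 in Gen-treated mice. Gen 1 and Gen 2 were the highest, Gen 3 was only just above control 3, and controls 1, 2 and 4 were far below. The geometric means were 546 in controls and 11796 in Gen-treated mice (SD 1.91 and 1.14 on the log2 scale, n = 4 each), a log2 difference of 4.43 ± 0.96 (SE) or 21.6-fold. The second probe, A_51_P309727, read 208, 306, 3705 and 228 against 21158, 18870, 3698 and 6316, a log2 difference of 4.35 ± 1.01 (SE, n = 4). With that probe the groups touched, since Gen 3 was a little below control 3. The Gen mean of the first probe was 41.6 times that of controls 1, 2 and 4, and 3.02 times control 3 alone.

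Fdx1, the ferredoxin that hands electrons to mitochondrial P450 enzymes in many tissues, had the smallest difference of the genes whose Gen arrays all lay above the controls. Probe A_52_P582105 read 14299, 12322, 16288 and 10816 in controls, and 58004, 32072, 18208 and 25607 in Gen-treated mice. The groups did not overlap, and control 3 was within 1.31 times the mean of the other controls. The log2 difference was 1.20 ± 0.33 (SE, n = 4), or 2.30-fold. The other Fdx1 probes gave log2 differences of 1.26 ± 0.34 (SE; A_51_P291135) and 1.20 ± 0.41 (SE; A_51_P291129, chr9:51921779-51921838), and with the last of these Gen 3, at 12071, fell just below control 1, at 12152.

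Hsd3b1, the form of 3β-hydroxysteroid dehydrogenase of mouse ovary and adrenal, followed Cyp11a1 from array to array. Its probe (A_51_P421418, chr3:98647842-98647901) read 2445, 1283, 18615 and 900 in controls, and 88719, 93445, 21861 and 31371 in Gen-treated mice. Gen 1 and Gen 2 were again the highest, and Gen 3 again only a little above control 3. The mean log2 signal was higher by 4.18 ± 0.96 (SE, n = 4), or 18.1-fold, and it was 5.11 without control 3.

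Hsd3b6, a related enzyme, read 105, 58.5, 661 and 28.2 in controls, and 3598, 4064, 829 and 948 in Gen-treated mice. It was well above background on 3 of 4 controls and on all Gen arrays, and the groups did not overlap. The log2 difference was 4.16 ± 0.99 (SE, n = 4), or 17.8-fold.

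The 3 probes named Hsd3b2 did not tell the same story. Probe A_52_P339759, whose bases are set beside those of Hsd3b6 above, read 50.8, 16.8, 397 and 5.89 in controls and 2361, 2452, 402 and 596 in Gen-treated mice. Controls 2 and 4 were not well above background, Gen 3 was barely above control 3, and the log2 difference was 4.85 ± 1.26 (SE, n = 4). Probe A_51_P226567 (chr3:98506611-98506670) had its highest signal in Gen 1, at 123, and 32.8 to 71.4 on the other Gen arrays. No control was well above background with it, and Gen-treated mice were at least 1.48-fold higher. Probe A_52_P318447 (chr3:98505782-98505841) was not well above background on any of the 8 arrays, so it gave no fold. The level of control 3 for this gene could therefore be read with 1 of the 3 probes. Of the other family members on the array, Hsd3b7, an enzyme of bile acid rather than hormone synthesis, read 9000 to 10107 in controls and 7664 to 10033 in Gen-treated mice, and Hsd3b4 read 45.0 to 74.4 and 59.7 to 87.2. Hsd3b3 was not well above background on any array and Hsd3b5 only on 2 Gen arrays.

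Cyp17a1, the androgen-forming enzyme of theca cells, differed by less than the spread between mice. It read 727, 1770, 1270 and 942 in controls and 1141, 1436, 984 and 913 in Gen-treated mice. The groups overlapped completely, the highest and the lowest array both being controls. Its log2 difference was −0.02 ± 0.28 (SE, n = 4), and over the alternative settings it lay between −0.22 and 0.22. Cyp17a1 was also the member with the smallest spread among Gen-treated mice (1.57-fold from lowest to highest), against 3.19-fold to 7.28-fold for the other genes.

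Cyp19a1, aromatase, was faint. Probe A_51_P474551 (chr9:54196600-54196659) read 16.3, 10.4, 16.2 and 10.7 in controls, none well above background, and 148, 65.4, 106 and 24.0 in Gen-treated mice. The 3 highest Gen arrays were well above background and Gen 4 was the lowest of its group. Gen-treated mice were at least 1.77-fold higher (measured geometric means 13.1 and 70.4, n = 4 each). Probe A_52_P591961, spread over 598 bases (chr9:54203407-54204004), was not well above background on any array. The size of the Cyp19a1 difference depended on how faint signals were handled, with log2 values of 0.46 to 2.94 across settings.

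Hsd17b1, the estradiol-forming enzyme of granulosa cells, read 143, 103, 152 and 94.4 in controls (chr11:101189262-101189321), and 1590, 1180, 463 and 218 in Gen-treated mice. All Gen arrays were above all controls, and control 3 stood with the other controls here. The log2 difference was 2.45 ± 0.59 (SE, n = 4), or 5.48-fold. The Gen-treated mice were far apart, 7.28-fold from lowest to highest.

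Hsd17b7, which acts both on estrone and in cholesterol synthesis, read 616, 429, 1624 and 368 in controls with probe A_51_P250934 (chr1:169928936-169928995), and 3165, 9221, 1601 and 1318 in Gen-treated mice. Gen 2 stood alone at the top, and the groups overlapped because control 3 was above Gen 3 and Gen 4. The log2 difference was 2.15 ± 0.69 (SE, n = 4), or 4.44-fold. Probe A_52_P566605 (chr1:169926548-169926607) gave 2.36 ± 0.72 (SE, n = 4), again with Gen 2 at the top and control 3 (741) above Gen 4 (579), but below Gen 3 (925).

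**Figure D2:**
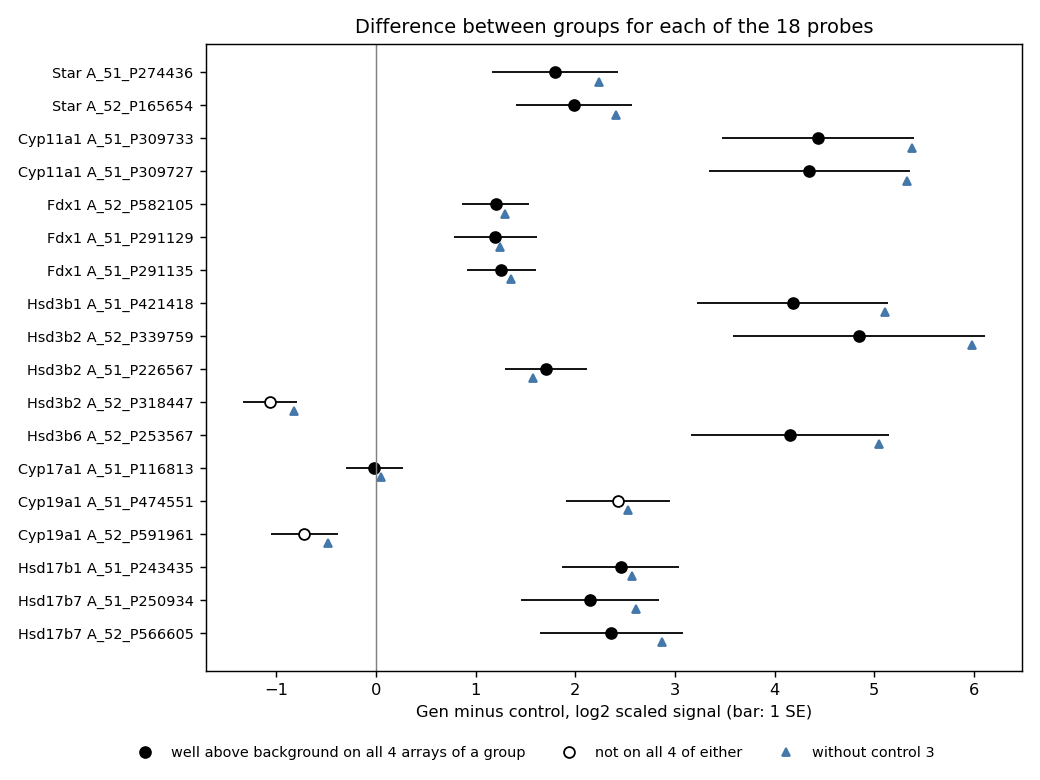
Log2 difference, Gen minus control, for each of the 18 probes (circles; bars, 1 SE of the fit over 4 and 4 arrays), and the same without control 3 (triangles). Probes of Cyp11a1, Fdx1, Star and Hsd17b7 lie close to each other within a gene. The values of Hsd3b2 A_51_P226567 and A_52_P318447 and of both Cyp19a1 probes rest on controls not well above background and are no measure of size. Those of Hsd3b2 A_52_P339759 and of Hsd3b6 rest in part on such controls.

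Control 3 stood apart within the control group. It was the highest control for 8 of the 10 genes, against 15.3% of detected probes. For 6 genes it was at least 3 times the geometric mean of controls 1, 2 and 4, as was true of 0.691% of those probes; the limit of 3 was set after the values were seen. The excess was 13.8-fold for Cyp11a1, 13.2-fold for Hsd3b1, at least 11.8-fold for Hsd3b6 and at least 10.9-fold for the Hsd3b2 probe that resembles it, some of their other controls not being well above background. It was smaller for Star (3.44-fold) and Hsd17b7 (3.53-fold). For Fdx1, Hsd17b1 and Cyp17a1 it was between 1.19-fold and 1.36-fold, and for Cyp19a1 no control could be read. Cyp11a1, Hsd3b1, Hsd3b6 and that Hsd3b2 probe thus shared the same high control. Whether the Hsd3b probes read separate transcripts was not tested, so the counts of genes may hold the same signal more than once. Fdx1 and Hsd17b1 had all Gen arrays above all controls with no control standing out.

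The Gen-treated mice also fell into an order that many of the genes shared. Gen 1 was the highest for Star, Cyp11a1, Fdx1, Cyp19a1 and Hsd17b1, and Gen 2 for Hsd3b1, Hsd3b2, Hsd3b6, Hsd17b7 and Cyp17a1. Gen 3 was the lowest for Star, Cyp11a1, Fdx1 and the 3 Hsd3b genes, and Gen 4 for the other genes. The place of Gen 3 depended on the scaling. Its 75th percentile, at 3772, was the highest of the 8 arrays (1908 to 2432 in controls, 2149 to 3772 in Gen-treated mice). Gen 3 was the lowest Gen array for 6 of the 10 genes after scaling and for 1 of them, Cyp11a1, without it. Without scaling, 8 of the 10 genes had all Gen arrays above all controls, Star being the gene added, and the median difference of all probes was higher by 0.24 on the log2 scale.

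**Figure D3:**
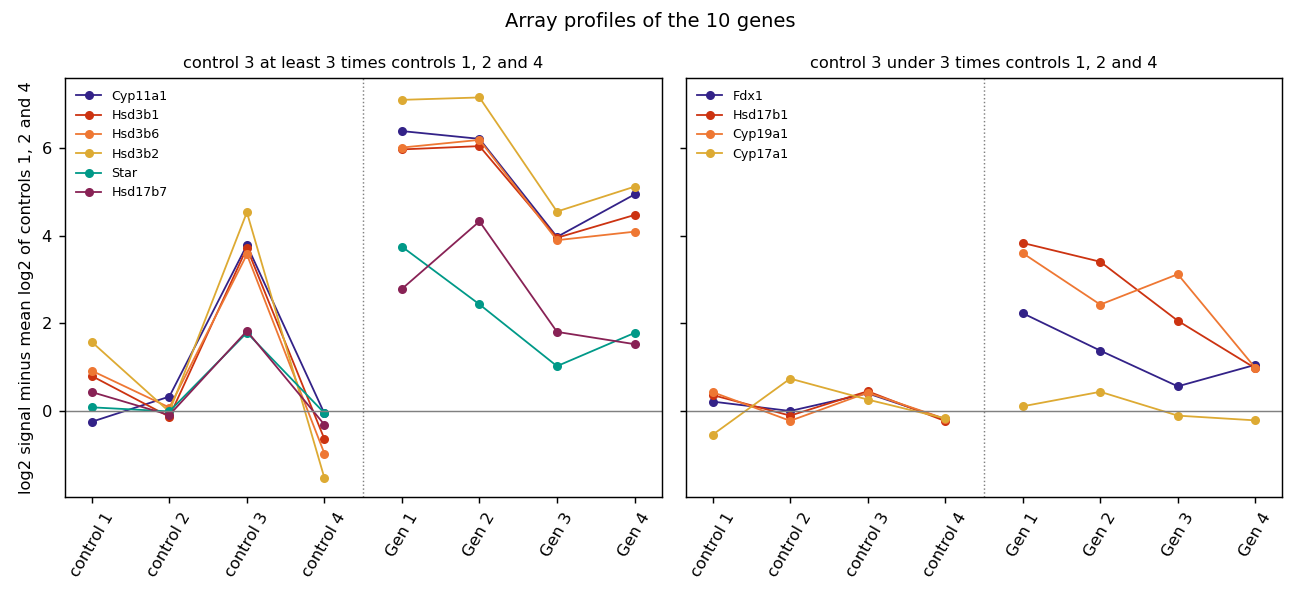
Log2 signal on each array relative to the mean of controls 1, 2 and 4, for the 6 genes with control 3 at least 3 times those controls (left) and the other 4 genes (right); the lines only join the points of 1 gene. Cyp11a1, Hsd3b1 and Hsd3b6 run almost on top of each other on control 3 and on the Gen arrays, and Cyp17a1 stays near 0; the controls of Cyp19a1 were not well above background.

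The likeness of array patterns was measured as Pearson's r with Cyp11a1 over the 8 arrays after each group's mean was taken away, for 14256 genes well above background on every array. The points share slide, scaling and control 3, and the values are a description. Hsd3b1 ranked 9th with r = 0.94 and Star 32nd with r = 0.89. Hsd17b7 (r = 0.78), Fdx1 (r = 0.65), Hsd17b1 (r = 0.51) and Cyp17a1 (r = 0.44) ranked lower. The 5 genes most like Cyp11a1 were Lfng, Chil1, Arrdc2, Spic and Tph1, with r from 0.96 to 0.98. In all 5 of them control 3 was the highest control, which follows largely from choosing them by likeness to Cyp11a1. Their log2 differences between the groups ran from −0.86 to 1.33. Tph1, the first enzyme of serotonin synthesis outside the brain, read 60.3, 89.3, 257 and 49.9 in controls and 59.8, 73.1, 29.1 and 49.9 in Gen-treated mice. Chil1, a secreted chitinase-like protein of myeloid and epithelial cells, read 65.0, 117, 504 and 92.1 in controls and 671, 526, 187 and 214 in Gen-treated mice. Lfng and Arrdc2 moved over a narrow range, 206 to 344 and 593 to 718 in controls, and their log2 differences between the groups were −0.17 and 0.03.

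Around the 10 genes, a list of 62 further genes of cholesterol supply, steroid conversion and its regulation was examined, of which 61 had a probe. In limma, 7 passed an adjusted p of 0.05 upward and 4 downward, against the 2.17% and 14% of all probes. All 7 that rose, but only 1 of the 4 that fell, were detected. The median log2 difference of the list was 0.08. With the test on detected probes alone, 0 of its 55 detected genes passed, with 15 at an unadjusted p under 0.05, and without control 3 the number passing in either direction was 7.

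Mgarp, a mitochondrial protein of steroid-forming cells, rose most, from 731, 171, 2029 and 170 in controls to 14222, 14052, 4024 and 5009 in Gen-treated mice (log2 difference 4.13 ± 0.86, SE, n = 4; adjusted p = 0.0236 in limma). Control 3 was 7.33 times the other controls, so that Mgarp had the same high array as Cyp11a1. Fdxr, the reductase that supplies Fdx1, rose from 3430 to 5330 in controls to 5679 to 20986 in Gen-treated mice (log2 difference 1.37 ± 0.37, SE, n = 4; adjusted p = 0.0394 in limma), and as with Fdx1 the groups did not overlap. Por, which supplies electrons to microsomal P450 enzymes such as Cyp17a1, had a log2 difference of 0.30 ± 0.13 (SE, n = 4) and did not pass (adjusted p = 0.189 in limma).

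Of the regulators, Nr5a2 (LRH-1), the nuclear receptor of granulosa and luteal cells, read 229, 161, 514 and 200 in controls and 4285, 1361, 592 and 1143 in Gen-treated mice (log2 difference 2.51 ± 0.61, SE, n = 4; adjusted p = 0.0268 in limma). Nr5a1 (SF-1), its relative in adrenal, theca and other steroid-forming cells, did not pass, at 159 to 328 in controls and 105 to 399 in Gen-treated mice (adjusted p = 0.821 in limma). Lhcgr, the luteinizing hormone receptor, was not well above background on any control and read 304, 186, 34.1 and 76.4 in Gen-treated mice, at least 2.77-fold higher (adjusted p = 0.0292 in limma). Gata4, a factor that acts on many steroid enzyme genes, passed at a log2 difference of 0.98 ± 0.27 (SE, n = 4; adjusted p = 0.0425 in limma) from faint signals of 36.4 to 65.0 in controls.

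Among the named genes of cholesterol handling 1 rose and 1 fell. Scarb1, the high-density lipoprotein receptor, read 8125 to 11230 in controls and 10157 to 26568 in Gen-treated mice and did not pass (adjusted p = 0.139 in limma). Abca1, the cholesterol exporter, rose by 0.65 ± 0.18 on the log2 scale (SE, n = 4), and Stard5, a cytosolic sterol-binding relative of Star, fell by 0.97 on the log2 scale (SE 0.20, n = 4), from 3129 to 5194 in controls to 1786 to 2597 in Gen-treated mice (adjusted p = 0.0396 and 0.0236 in limma). Enzymes that change or inactivate the hormones, namely Srd5a1, Hsd17b2 and Akr1c18, had log2 differences of 0.32, 0.30 and −0.39 and did not pass. Cyp21a1, the 21-hydroxylase of the adrenal, passed (adjusted p = 0.0416 in limma) but read only 22.3 to 32.9 in Gen-treated mice and was not well above background on any control, so that no fold is given.

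**Figure D4:**
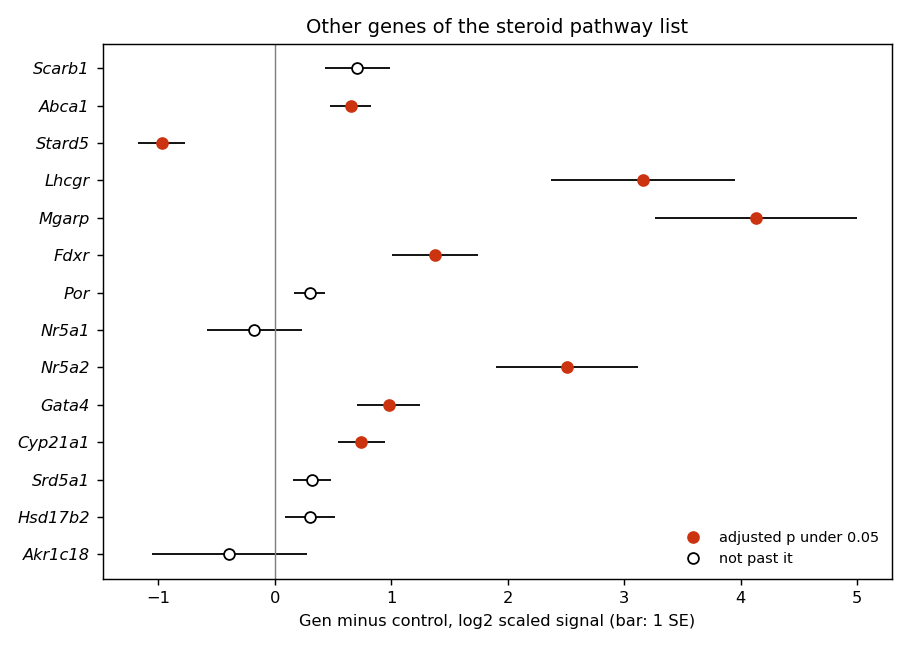
Log2 difference, Gen minus control, for genes named from the steroid pathway list (bars, 1 SE, 4 and 4 arrays), from cholesterol supply at the top to hormone conversion at the bottom. Mgarp, Lhcgr, Nr5a2 and Fdxr lie highest among those past the adjusted p of 0.05 in limma (filled), and Stard5 is the one below 0. The Lhcgr and Cyp21a1 values rest on controls not well above background, and the Gata4 value rests on them in part.

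Nr5a1 and Nr5a2 bind DNA elements built on the letters AGGTCA, so the 250 bases before each RefSeq start (GRCm38.p6) were searched for AGGTCA and for the longer CAAGGNCA on both strands; the longer contains the shorter where N is T. The promoter table held 10 windows for 7 of the 10 genes, and none for Star, Cyp17a1 and Hsd17b1. AGGTCA was found in 2 of the 10 windows, 1 of Cyp11a1 and 1 of Cyp19a1, and in 14.0% of all 32851 windows. CAAGGNCA was found in 0 of the 10 and in 5.53% of all windows. The Cyp11a1 window with the match (chr9:58014702-58014951, plus strand) is printed with the motif in capitals, which begins 28 bases before the start.
Cyp11a1 upstream: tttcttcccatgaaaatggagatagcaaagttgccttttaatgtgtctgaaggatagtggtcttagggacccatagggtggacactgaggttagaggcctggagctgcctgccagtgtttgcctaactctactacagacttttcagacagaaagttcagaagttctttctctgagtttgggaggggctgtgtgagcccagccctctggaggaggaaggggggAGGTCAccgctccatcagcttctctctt
The match is a description of these letters only.

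Cells of the ovary make most of these enzymes, and markers of ovarian and other cells are given beside them. The counts that follow stand beside the 2.17% of all probes that passed upward, the 14% that passed downward and the 28.2% with an unadjusted p under 0.05, and nothing particular to a list is read from them. Of 20 granulosa and cumulus cell genes, 4 rose and 0 fell (10 with an unadjusted p under 0.05), with a median log2 difference of 0.45. Inha, the inhibin α subunit, rose from 1297, 384, 1149 and 593 in controls to 10141, 8248, 2687 and 1713 in Gen-treated mice (log2 difference 2.54 ± 0.65, SE, n = 4; adjusted p = 0.0319 in limma), and Runx2, Nr5a2 and Lhcgr were the other genes that rose. With the test on detected probes alone, 2 of the granulosa, theca and luteal genes passed. Amh, the anti-Müllerian hormone of growing follicles, was not well above background on any control and at least 2.71-fold higher in Gen-treated mice, without passing (adjusted p = 0.0547 in limma). Foxl2, a defining factor of granulosa cells, had a log2 difference of 0.02 ± 0.27, and Fshr, the follicle-stimulating hormone receptor, one of 0.49 ± 0.76 (SE, n = 4 each), and neither passed. Fshr read 23.3 to 221 in controls and 37.2 to 133 in Gen-treated mice. It was well above background on 1 control and all 4 Gen arrays, so its difference is no measure of size.

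Of 15 theca and luteal cell genes, 4 rose (Mgarp, Lhcgr, Prlr and Ephx2) and 1 fell (Pgr, the progesterone receptor, by 0.64 on the log2 scale), with a median of 0.28 and 7 genes at an unadjusted p under 0.05. Insl3, a hormone of theca cells, read 763 to 1205 in controls and 988 to 1451 in Gen-treated mice, and Ptgfr, the luteal prostaglandin F receptor, read 572 to 1480 and 1384 to 4898. Neither passed (adjusted p = 0.378 and 0.121 in limma).

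Of 19 measured genes of the oocyte and early embryo, 1 rose (Figla) and 1 fell (Obox6, not well above background on any array). Figla was not well above background on any control and was at least 1.71-fold higher in Gen-treated mice (adjusted p = 0.0494 in limma). In this list 14 genes had an unadjusted p under 0.05, and the median log2 difference was 2.35. Gdf9, an oocyte growth factor, read 3201, 272, 2445 and 229 in controls and 5959, 19371, 3252 and 3346 in Gen-treated mice (log2 difference 2.83 ± 1.02, SE, n = 4; adjusted p = 0.107 in limma). Zp3, of the egg coat, had a log2 difference of 2.22 ± 0.86 (SE, n = 4), and Bmp15, a partner of Gdf9, read 6.02 to 73.2 in controls and 67.3 to 514 in Gen-treated mice, and neither passed. Among the 17 detected genes of this list, controls 1 and 3 were the highest controls for 14 and Gen 2 was the highest Gen array for 16. Shares of all probes with these orders are not given, and nothing is read from the counts. Control 3 was at least 3 times the other controls for 7 genes, against 0.691% of all detected probes. Most of the 7 were well above background on only 2 controls, so their ratios are no measure of size.

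Summed over each list, where the brightest genes weigh most, the signals set control 3 in different places. The sum over the 10 genes was 47316 on control 3, against 14665 to 19985 on the other controls and 51482 to 199671 on the Gen arrays. Of the sum on control 3, Hsd3b1 gave 18615 and Fdx1 gave 16288. The granulosa and cumulus sum was 18301 on control 3, inside the control range of 15123 to 20637, and 23567 to 48073 on the Gen arrays. Inhbb alone gave 6843 of that sum on control 3. The oocyte sum was 15583 on control 3, also inside its range of 12311 to 24360, and 19893 to 70135 on the Gen arrays, with 6896 of the sum on control 3 from Oog1 alone. The theca and luteal sum was 171458 on control 3, within 153590 to 180087, and 152734 to 216750 on the Gen arrays, but Rgs2 alone gave 96084 on control 3. Gene by gene, control 3 was the highest control for 7 of the 15 theca and luteal genes, 3 of 19 detected granulosa and cumulus genes and 4 of 17 detected oocyte genes. Among detected genes of the other cell types it was the highest control for 9 of 10 macrophage, 7 of 9 fat, 4 of 10 smooth muscle, 1 of 5 adrenal and 1 of 15 oviduct epithelium genes. Over all detected probes the share was 15.3%.

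Markers of adrenal cortex, another steroid-forming tissue, and of fat, which surrounds the ovary and oviduct, were read as well. Of 6 adrenal genes with a probe, 2 rose (Mrap and Cyp21a1) and 1 fell, this one being not well above background on any array. Mrap, the partner of the adrenocorticotropin receptor in adrenal and fat, read 228, 163, 673 and 186 in controls and 3736, 2338, 742 and 1523 in Gen-treated mice, and ranked 15th in likeness to Cyp11a1 (r = 0.92). The adrenal sum was 1040 on control 3, of which Mrap gave 673, and 476 to 681 on the other controls. Of 10 fat cell genes 0 passed in limma, with 1 (Lep, not well above background on any array) at an unadjusted p under 0.05. Adipoq read 6731 on control 3, 2346 to 3015 on the other controls, and 1077 to 5918 in Gen-treated mice. The fat sum was highest on control 3, at 87443, and lowest on Gen 1, at 19554, the array on which Cyp11a1 was highest.

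No marker of the oviduct wall passed. Of 15 oviduct epithelium genes 0 passed in limma (3 had an unadjusted p under 0.05). Their median log2 difference was 0.01. Of 10 smooth muscle genes 0 passed in limma (2 had an unadjusted p under 0.05), and the median was −0.26. Pax8, a factor of secretory cells, had a log2 difference of −0.28 ± 0.17 (SE, n = 4), and Myh11, smooth muscle myosin, one of −0.30 ± 0.18. Of 10 macrophage genes, 2 rose, namely Adgre1 by 0.66 and Itgam by 0.74 on the log2 scale (adjusted p = 0.0246 and 0.0236 in limma), and their sum was 169743 on control 3, the highest control. The part that any of these cells had in the signals of the 10 genes was not tested.

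**Figure D5:**
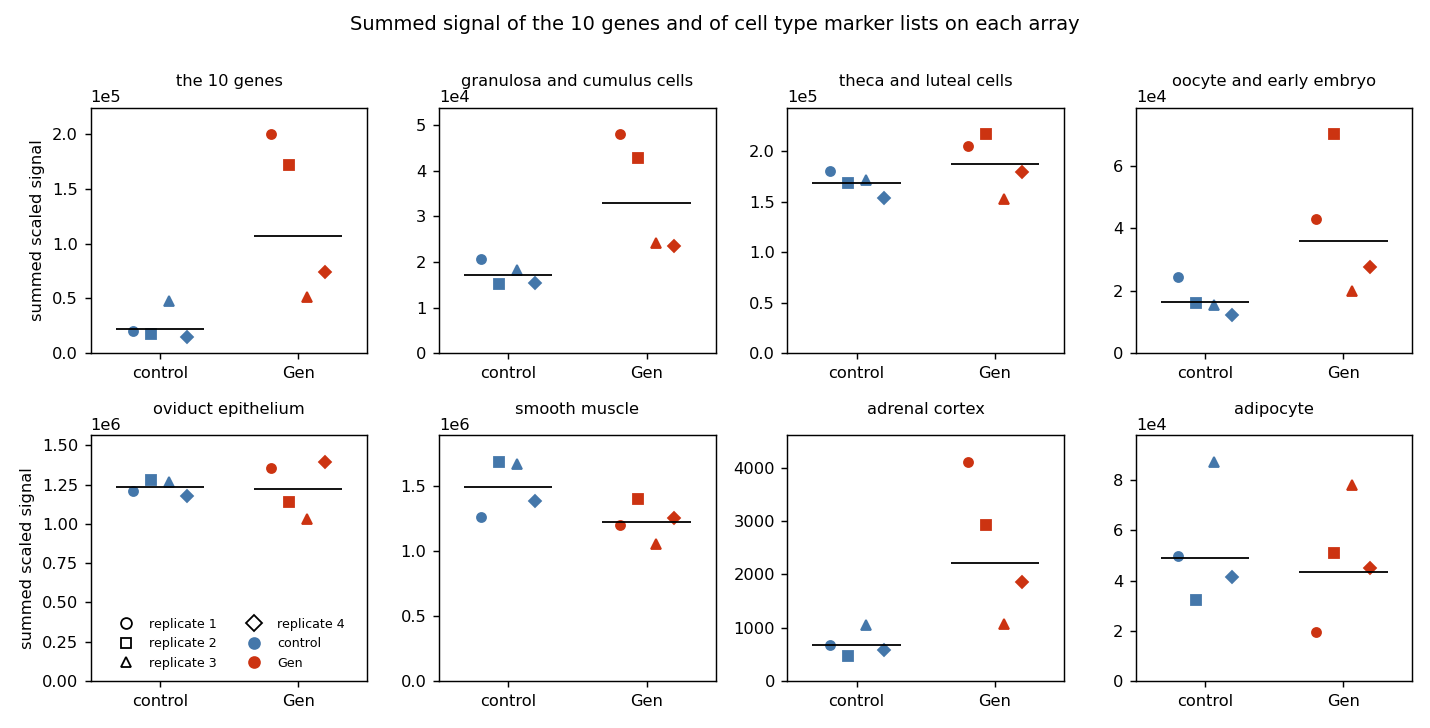
Summed scaled signal on each array (axes start at 0) for the 10 genes and for marker lists, 1 probe per gene; bars are geometric means of 4 arrays. The sum over the 10 genes sets control 3 apart from the other controls. The granulosa sum (brightest gene on control 3 Inhbb), the theca sum (Rgs2) and the oocyte sum (Oog1) do not. The adrenal and fat sums have control 3 as the highest control. In each sum the brightest genes weigh most, so it does not speak for each gene of its list.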

How the data were processed

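Each of the 8 arrays held the Cy3-labelled RNA of 1 mouse on an Agilent whole mouse genome 4x44K design. The authors extracted spot intensities with Agilent Feature Extraction 9.5, and the deposited processed intensity is background-subtracted and detrended within the array but not scaled between arrays. The deposited series table held the same intensities. The authors went on with other software, whose output was not used here.

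From these, log2 intensities were brought to a common 75th percentile, outlier-flagged spots were left out and spots of 1 probe averaged. Groups were compared with limma 3.58.1 in R 4.3.3 (4 against 4 arrays, no covariate), with Benjamini-Hochberg adjustment over all 41173 probes and a threshold of 0.05. A gene is read from the probe with the highest mean signal. A probe at background in a whole group gives only a bound, set against the lowest signal well above background on each array. The script was tested on simulated data.

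The genes, the lists and the tests were chosen with earlier results of these data known. Every probe of the 10 genes is given. Of the pathway list, genes past the threshold and well above background on all 4 arrays of a group are named, with a few genes fixed whatever their values, some of which are not reported here; of the marker lists, the defining markers; and the 5 genes most like Cyp11a1. Other genes named (Prlr, Ephx2, Runx2, Pgr, Mrap, Lep, Figla, Obox6, Oog1, Rgs2, Inhbb, Adgre1, Itgam and the Hsd3b relatives) were picked after their values were seen. Cyp11b1 and Zp1 were not analysed here. Other settings tried were quantile normalization, unscaled signals, normexp, a test on detected probes alone, a signal floor of 65.9, flagged spots kept in, a robust fit with an intensity trend, the t-test named in the methods, a replicate block, all probes of a gene averaged, and leaving out each array. Probe sequences and mm7 positions are those of the array design; promoters are from RefSeq. No replicate-level depth applies to arrays, and their number limits the precision.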

Additional observations from a re-analysis of the deposited data

Results flagged for a closer look

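In 5 of the 27 groups of 4 arrays examined (18.5%), the highest array stood apart from the other 3 by Dixon's test at 95%, and in all 5 it was control 3. The nominal rate of 1 group in 20 is no yardstick here, because the groups share arrays and the genes were chosen with these data known. The test was made on log2 signals. On that scale the gap between control 3 and the next control was 0.857 and 0.866 of the whole control range for the Cyp11a1 probes A_51_P309733 and A_51_P309727. It was 0.929 and 0.983 for the Star probes A_51_P274436 and A_52_P165654, and 0.939 for the Hsd17b7 probe A_52_P566605. The probes of a gene are read on the same RNA, so that these are 3 genes on 1 array and not 5 separate events. Hsd3b1 had the same high control without passing this limit (0.670), as did A_51_P250934, the brighter Hsd17b7 probe (0.652). The controls of Hsd3b2 and Hsd3b6 were not examined because some were not well above background. The reason was not tested.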

How the results depend on the processing

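Except for Cyp17a1, which lay between −0.22 and 0.22, the log2 differences of the 10 genes stayed above 0 in the 17 or 18 alternatives run for each, but the counts past the adjusted p moved widely. The counts called were 7 of the 10 genes, 11 pathway genes, 8 ovarian somatic, 2 oocyte and 0 oviduct markers. Adrenal, fat and macrophage markers, counted together, gave 5, of which 0 were fat genes. Under quantile normalization, the signal floor, the methods' t-test and the replicate block all of them were 0, when 178, 20, 0 and 1 of all 41173 probes were called (6674 in the reported fit). With normexp they were 0, 1, 3, 0, 0 and 0, and with dim probes left out 0, 0, 2, 0, 0 and 1. Without scaling, the pathway, oocyte and joint adrenal, fat and macrophage counts were 5, 4 and 1. The intensity trend called 1 oviduct marker. The 10 genes at an unadjusted p under 0.05 numbered 8 or 9 in every alternative.

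Leaving out single arrays gave 0 to 8 of the 10 genes (0 without control 1, Gen 1, Gen 2 or Gen 3, 2 without control 2, 4 without control 4). It gave 0 to 9 pathway, 0 to 7 ovarian somatic, 0 to 2 oocyte and 0 to 1 oviduct genes. Adrenal, fat and macrophage genes together gave 0 to 5. Each list was at 0 without control 1, Gen 1, Gen 2 or Gen 3, when 97, 3, 2 and 1 of all probes were called. The cause was not tested. Cyp19a1 fell from 2.43 to 0.60 with normexp, 0.46 with the floor and 0.85 over all its probes. Hsd3b2 fell from 4.85 to 3.03 with normexp, 3.39 with the floor and 1.83 over all its probes. Same-numbered arrays deviated with r of −0.08, 0.11, −0.02 and −0.18, and differently numbered ones with r from −0.23 to 0.38. Whether equal numbers pair the mice cannot be told from these values.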
